A study of Felis catus with 8 samples.

Results

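Monosodium glutamate (MSG) added to an ordinary cat chow was compared with the same chow without it, in liver of male domestic cats (Felis catus) aged 9 months. The comparison set the 2 arrays labelled with the MSG diet against the 2 arrays labelled with the control diet, chosen by the treatment label, out of 8 arrays in the series. The MSG diet was the control chow with 1.125% MSG. The dams of every group ate the diet of their group from 3 weeks before mating through nursing, and the sons were weaned onto it, so the offspring met the diet before birth, in milk and as food. The other 4 arrays came from cats on a diet with 8.6% of its content as trans fat and 24% as high-fructose corn syrup (HFCS), 2 without MSG (the trans-fat/HFCS diet) and 2 with 1.125% MSG (the combined diet). They entered here to estimate the spread and as the base on which MSG was added a second time. The labels give each array its own cat number and mark the pair within a diet as biological replicates. They state that 4 to 5 livers per diet were extracted, and leave unsaid which litter or dam each came from and whether an array holds RNA of more than 1 liver. Diet and litter therefore cannot be told apart, and the p-values measure the spread between arrays.

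Glutamate is the amino acid behind umami taste, sensed in the mouth by the receptor pair TAS1R1 and TAS1R3, and most of what is eaten is used up by the gut wall. The liver moves nitrogen through glutamate: transaminases and glutamate dehydrogenase make and break it, glutamine synthetase traps ammonia with it, and glutaminase releases it for the urea cycle. Hepatic transcription also follows feeding, fasting and hormones within hours, through immediate early genes, the glucagon and cAMP pathway and regulators of fat oxidation.

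Snap-frozen liver RNA was hybridised to a human whole-transcript array (HuGene 1.0 ST), on which a gene is read by several exon-level probe sets. The deposited normalized intensities were converted to log2, dim probe sets were left out, and the kept probe sets of a gene were averaged, which gave 17910 genes. Median intensity of all probe sets lay between 5.25 and 5.26 on the 4 arrays. Gene values correlated across genes with r = 0.968 between the control arrays, 0.961 between the MSG arrays and between 0.95 and 0.956 across the diets. The liver label held: all 10 measured hepatocyte markers, among them albumin (ALB), transferrin (TF) and the urea cycle enzyme CPS1, lay at or above the 90.7th percentile of tested genes. With 2 arrays per diet, precision is limited by their number.

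Of the 17910 genes, 53 differed between the MSG and control diets at a Benjamini-Hochberg adjusted p under 0.05 in limma (0.296%), 9 higher (0.0503%) and 44 lower (0.246%) with MSG. The genes that rose in several probe sets included the activin-binding protein FST (6.1-fold), the mitochondrial carrier SLC25A25 (4.32-fold), the thyroid hormone activating enzyme DIO2 (3.84-fold), the orphan nuclear receptor NR4A2 (3.03-fold) and the fat oxidation enzyme CPT1A (2.3-fold). Those that fell included OSGIN2 (4.53-fold), the immediate early transcription factors EGR1 (4.11-fold) and FOS (2.28-fold), and the NF-kB regulators NFKBIZ (2.81-fold) and NFKBIA (2.1-fold). All 53 differed at least 2-fold, and the median difference over all tested genes was 0.00 on the log2 scale. With the median of the probe sets as the gene value 14 of the 53 passed in the same direction, 7 of them with at least 2 probe sets: FST, EGR1, OSGIN2, SLC15A3, PLK2, ELF3 and C19orf39 (the last 3 lie outside the naming rule). In SLC15A3 and C19orf39 only 1 of 3 probe sets was lower on both MSG arrays, by 6.04 and 5.51. Their other probe sets differed by -0.03 and 0.39 in SLC15A3 and by 0.10 and 0.29 in C19orf39. With an offset of 16 added to the intensities before the logarithm 137 genes passed, 37 higher and 100 lower. Without any 1 of the 4 arrays compared, between 13 and 19 genes passed.

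**Figure D1:**
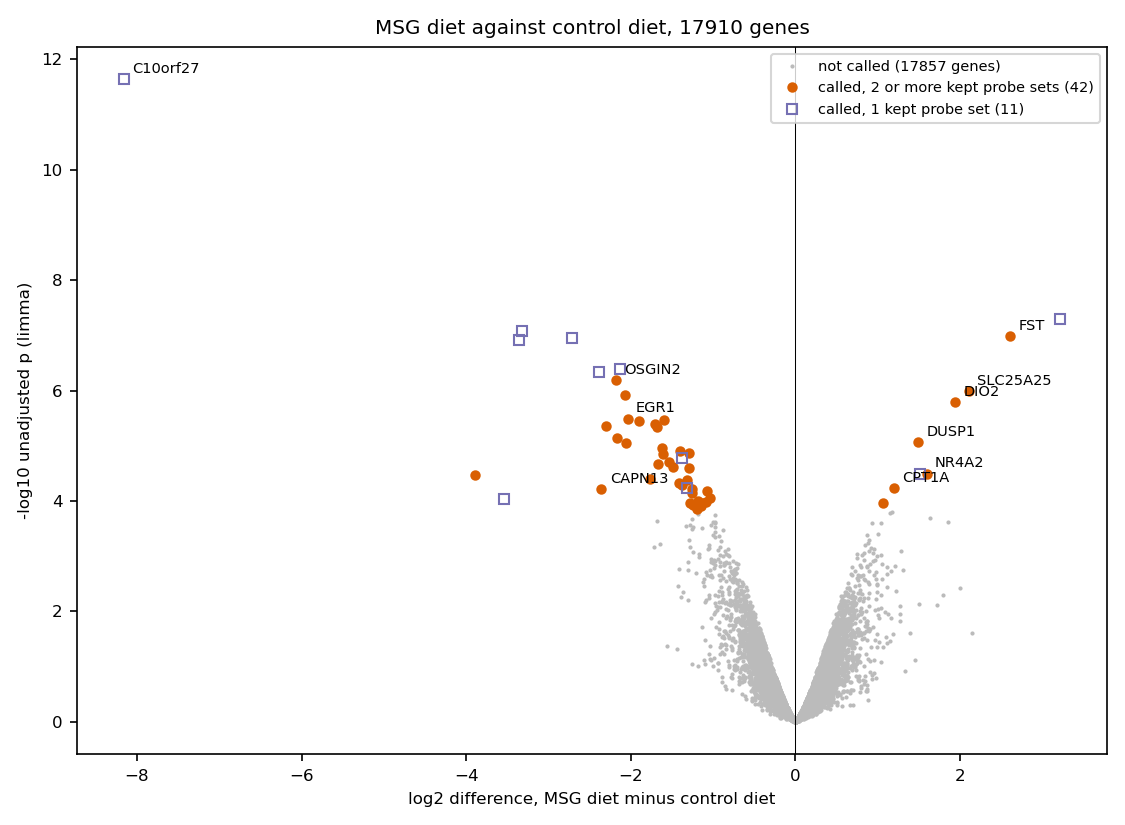
Log2 difference of the MSG diet minus the control diet (x axis) against the unadjusted limma p on a -log10 scale (y axis) for 17910 genes. The 53 called genes are coloured, 42 with 2 or more kept probe sets (circles) and 11 with 1 (open squares), and 44 of the 53 lie on the left, where the MSG diet was lower.

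FST encodes follistatin, a secreted protein that binds activins and keeps them from their receptors. Its log2 value was 4.34 and 4.24 on the control arrays and 6.92 and 6.88 on the MSG arrays. The MSG arrays thus lay far above the control arrays, with a log2 difference of 2.61 (SE 0.17, adjusted p = 0.00036 in limma). All 8 kept probe sets were higher on both MSG arrays than on both control arrays, by 1.68 to 3.15, where 18.1% of all kept probe sets were placed that way. FST kept its call in all 19 alternative settings run. The other diets were high as well, with 5.94 and 6.27 on the trans-fat/HFCS arrays and 6.35 and 6.38 on the combined arrays, so the control arrays were the lowest of the 8. No other member of the activin and TGF-beta list was called among 39 measured, and the list had a median of 0.01. The activin subunit INHBB stood at 0.60 (SE 0.24, adjusted p = 0.6 in limma) and the iron hormone HAMP at -0.62 (SE 0.17, adjusted p = 0.34).

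SLC25A25, a calcium-regulated carrier that exchanges ATP-Mg for phosphate across the inner mitochondrial membrane, stood at 4.53 and 4.43 on the control arrays and at 6.79 and 6.39 on the MSG arrays. The trans-fat/HFCS arrays (4.18 and 4.23) and the combined arrays (4.34 and 4.45) lay near the control arrays. The difference was 2.11 (SE 0.18, adjusted p = 0.0018 in limma), and 6 of 8 kept probe sets were higher on both MSG arrays. DIO2, the deiodinase that turns thyroxine into the active hormone, rose in the same arrays. It was at 3.36 and 3.34 on the control arrays and at 5.16 and 5.43 on the MSG arrays, and no array of the other diets exceeded 3.61. Its difference was 1.94 (SE 0.18, adjusted p = 0.0024 in limma), with 5 of 7 probe sets higher on both MSG arrays and 1 lower. In the DIO2 probe sets that rose most, by 4.66 and 4.64, the control arrays were dim, between 1.87 and 2.93. With the median of the probe sets in place of their mean, SLC25A25 (adjusted p = 0.11) and DIO2 (adjusted p = 0.057) did not pass. Among 20 measured genes of thyroid hormone handling and response, DIO2 and CPT1A rose and none fell, with a list median of 0.07. The deiodinase DIO1, the main one of liver, was at 0.20 (SE 0.17, adjusted p = 0.87 in limma), a gene added here beside DIO2 after its value was seen.

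The SLC25 family of mitochondrial carriers held further called members. SLC25A21, which carries oxodicarboxylates of lysine and tryptophan breakdown, was at 6.37 and 6.44 on the control arrays and at 5.13 and 4.92 on the MSG arrays. It fell by 1.38 (SE 0.19, adjusted p = 0.024 in limma), and 9 of 10 probe sets were lower on both MSG arrays, against 18.7% of all kept probe sets. The trans-fat/HFCS arrays, at 4.83 and 5.18, were as low as the MSG arrays. SLC25A28, an iron importer of mitochondria named here outside the rule, rose by 1.52 on its single kept probe set. Its other probe sets fell below the filter on dim signal, with differences between -0.56 and 0.39. Of 39 measured carriers 2 rose and 1 fell, with a median of 0.14 and 29 positive differences. Both MSG arrays lay above both control arrays in 20 of them, where 19.8% of all genes were placed that way. SLC25A30 stood at 1.64 (SE 0.27, adjusted p = 0.062 in limma) and SLC25A38 at -0.90 (SE 0.24, adjusted p = 0.34). The call of SLC25A21 ended without any 1 of the 4 arrays (adjusted p between 0.14 and 0.25 in limma), and was also lost when the brightest probe set stood for the gene (0.14).

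**Figure D2:**
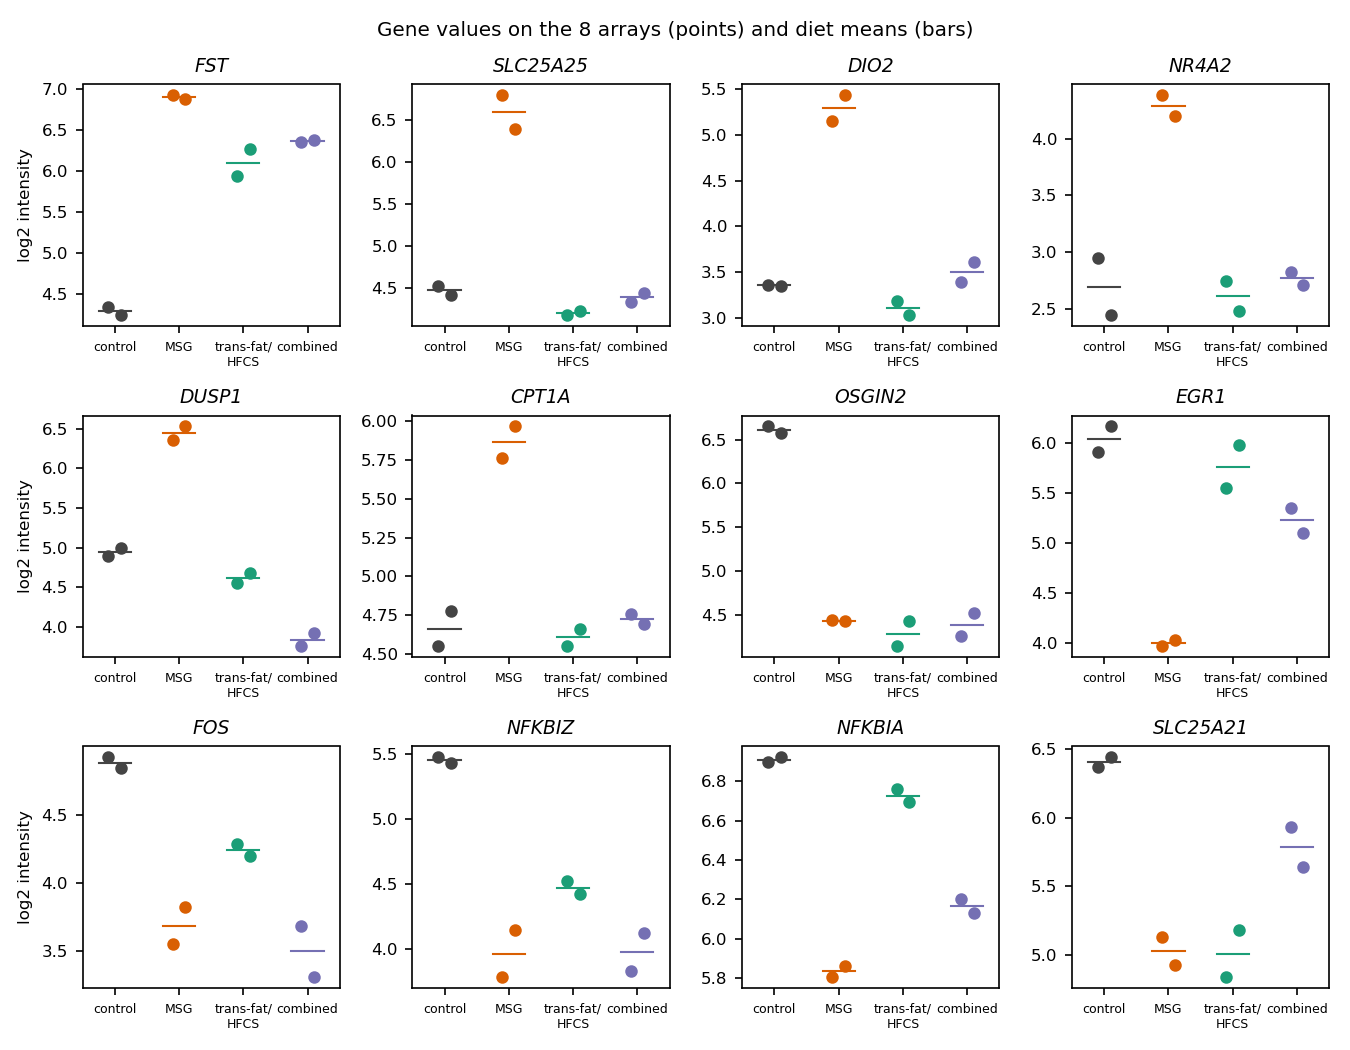
Gene values (log2 intensity, y axis, with its own range in each panel) of 12 genes on the 8 arrays, by diet (x axis), with a bar at the mean of each diet. SLC25A25, DIO2, NR4A2 and CPT1A are high on the MSG arrays alone, whereas FST is low and OSGIN2 is high on the control arrays alone.

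The rapidly induced immediate early genes moved in both directions. EGR1 stood at 5.91 and 6.16 on the control arrays and at 3.96 and 4.03 on the MSG arrays, a fall of 2.04 (SE 0.20, adjusted p = 0.0042 in limma), with all 3 probe sets lower on both MSG arrays. FOS, a subunit of the AP-1 transcription factor, was at 4.92 and 4.84 on the control arrays and at 3.55 and 3.82 on the MSG arrays. In both genes the control and MSG arrays did not overlap, and FOS kept its call in 5 of the 19 alternative settings. On the combined arrays FOS was as low as on the MSG arrays (3.69 and 3.31), and EGR1 stood at 5.35 and 5.10. The trans-fat/HFCS arrays were at 4.28 and 4.20 for FOS and at 5.55 and 5.98 for EGR1. GADD45B, a stress response gene, fell from 5.28 and 5.41 to 4.24 and 4.29 (adjusted p = 0.039 in limma, against 0.047 for FOS). It had 3 of 6 probe sets lower on both MSG arrays and kept its call in 7 of the 19 settings. The combined arrays were lower still for GADD45B, at 4.09 and 3.89. In contrast DUSP1, a phosphatase that switches off MAP kinases, rose from 4.90 and 5.00 to 6.35 and 6.53, a difference of 1.49 (SE 0.17, adjusted p = 0.0075 in limma), in all 4 probe sets. NR4A2 rose from 2.95 and 2.44 to 4.38 and 4.20, a difference of 1.60 (SE 0.21, adjusted p = 0.018 in limma), with 4 of 7 probe sets higher on both MSG arrays. Its control values lay close to the filter on dim signal (log2 2.43).

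In the whole list 2 of 34 measured immediate early genes rose and 3 fell, and the median was -0.12. MYC, named outside the rule after its value was seen, stood at 1.15 (SE 0.19, adjusted p = 0.053 in limma). NR4A1, a receptor of the NR4A2 family also named after its value was seen, was at 0.24 (SE 0.19, adjusted p = 0.85) and NR4A3 at -0.63 (SE 0.16, adjusted p = 0.31), and neither passed. The calls of DUSP1, FOS and GADD45B ended without any 1 of the 4 arrays (adjusted p between 0.073 and 0.36 in limma). Those of EGR1 (up to 0.073) and NR4A2 (up to 0.18) ended without any 1 of the 4 other than control array 1. FOS also did not pass after quantile normalization (adjusted p = 0.051), and with the brightest probe set EGR1 (-0.59), DUSP1 and NR4A2 (0.22) did not pass.

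The NF-kB regulators NFKBIA and NFKBIZ fell, the called members of the inflammatory signalling list. NFKBIA, the inhibitor that holds NF-kB in the cytoplasm and is itself an NF-kB target, was at 6.90 and 6.92 on the control arrays and at 5.81 and 5.86 on the MSG arrays. It was lower by 1.07 (SE 0.15, adjusted p = 0.028 in limma), and all 6 probe sets were lower on both MSG arrays. NFKBIZ, a nuclear member of the same inhibitor family, was at 5.47 and 5.43 on the control arrays and at 3.78 and 4.14 on the MSG arrays (adjusted p = 0.015), with 10 of 13 probe sets lower on both MSG arrays. TNFAIP3, another feedback inhibitor, stood 2.01-fold lower (SE 0.17 on the log2 scale, adjusted p = 0.069) and the chemokine CCL4 at 0.89 (SE 0.17, adjusted p = 0.11). Of 30 measured genes of inflammatory signalling 2 fell and none rose, with a median of -0.07. The combined arrays, at 3.83 and 4.12 for NFKBIZ, were as low as the MSG arrays. Both calls ended without any 1 of the 4 arrays and with the brightest probe set (adjusted p of 0.28 for NFKBIA and 0.070 for NFKBIZ in limma). NFKBIA kept its call in 8 of the 19 alternative settings and NFKBIZ in 13. That of NFKBIA also ended in a fit of the 4 arrays alone, without both trans-fat/HFCS arrays and with the replicate block.

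No marker of immune cells was called. The summed intensity of 10 Kupffer cell and macrophage markers was 268 to 280.1 on the control arrays and 274 to 277 on the MSG arrays. That of 4 measured neutrophil markers of 6 was 50.1 to 59.6 and 54.1 to 61.8. That of 9 measured lymphocyte and NK cell markers of 10 was 156 to 157 and 159 to 169, so only the last of these sums did not overlap between the diets. In bulk tissue fewer cells of a type and less RNA per cell cannot be told apart. Of 13 marker lists none had a called marker. The summed intensity of 2 measured erythroid markers of 6 was 37.4 to 38.5 on the control arrays and 26.2 to 32.1 on the MSG arrays, and that of 5 intestinal markers 110.7 to 115 and 86.4 to 94.1. That of 6 smooth muscle markers was 143 to 145 and 148.15 to 149.995. Summed intensity of 11 skeletal muscle markers was 185 to 191 on the control arrays, 199.1 to 199.3 on the MSG arrays and 764 to 779 on the trans-fat/HFCS arrays. Among single genes, both MSG arrays lay above both control arrays in 19.8% of all tested and below them in 19.7%. No such share was computed for sums, so these gaps are a description. The part of lymphocyte, erythroid, intestinal, smooth and skeletal muscle RNA in the results was not tested; without both trans-fat/HFCS arrays 39 genes passed, all of them among the 53.

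Genes of fat use were called at 1 point. CPT1A, which loads long-chain fatty acids for entry into mitochondria and sets the pace of their oxidation, was at 4.55 and 4.78 on the control arrays and at 5.77 and 5.97 on the MSG arrays. It rose by 1.20 (SE 0.17, adjusted p = 0.027 in limma), with 9 of 11 probe sets higher on both MSG arrays. No array of the other diets exceeded 4.76 for CPT1A. Of 28 measured genes of fatty acid oxidation and ketogenesis CPT1A alone was called, with 23 positive differences and a median of 0.16, and 11 lay higher and 2 lower on both MSG arrays, where 19.8% and 19.7% of all genes did. The lipid droplet coat protein PLIN2 stood at 0.88 (SE 0.20, adjusted p = 0.2 in limma) and the acyl-CoA dehydrogenase ACADVL at 0.54 (SE 0.18, adjusted p = 0.46). None of 24 genes of fatty acid and triglyceride synthesis was called and their median was -0.19, with 12 lower and 8 higher on both MSG arrays. DGAT1, which completes triglyceride synthesis, stood at 0.68 (SE 0.20, adjusted p = 0.39 in limma). In the other direction ACACA, the acetyl-CoA carboxylase of lipogenesis, stood at -0.60 (SE 0.16, adjusted p = 0.34) and the fatty acid synthase FASN at -0.50 (SE 0.17, adjusted p = 0.49). CPT1A lost its call without any 1 of the 4 arrays (adjusted p between 0.14 and 0.29 in limma), in a fit of the 4 arrays alone (0.067), with the 75th percentile filter (0.057) and with its brightest probe set (difference 0.10).

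The list of glucagon and cAMP response, written with the rise of FST, DIO2 and SLC25A25 known but without those genes, had 1 called gene of 22, NR4A2, and a median of 0.16. G6PC, which releases free glucose, stood at 8.68 and 8.45 on the control arrays and at 9.45 and 9.07 on the MSG arrays (0.69, SE 0.19, adjusted p = 0.36 in limma). PCK1, the entry enzyme of gluconeogenesis, was at 0.60 (SE 0.17, adjusted p = 0.36), the insulin receptor substrate IRS2 at -0.82 (SE 0.16, adjusted p = 0.14) and the growth factor IGF1 at -0.72 (SE 0.16, adjusted p = 0.18). None of these differences passed. None of 35 genes of gluconeogenesis, glycogen and glycolysis, 29 of the insulin and IGF axis or 32 of bile acid synthesis and transport was called.

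Genes that handle glutamate itself showed no called difference. Of 33 measured enzymes of glutamate and glutamine, none was called and the median was -0.01, with 2 at an unadjusted p under 0.05. The smallest p belonged to glutamine synthetase, GLUL, at 7.95 and 7.66 on the control arrays and 7.15 and 7.18 on the MSG arrays (-0.64, SE 0.19, adjusted p = 0.38 in limma). The ornithine aminotransferase OAT was at -0.48 (SE 0.21, adjusted p = 0.64) and the glutathione synthesis enzyme GCLC at 0.36 (SE 0.17, adjusted p = 0.68). Glutamate dehydrogenase GLUD1, named for its place in the pathway and measured by 1 kept probe set, was at 0.01 (SE 0.21, adjusted p = 0.997). Of 27 glutamate and umami receptors none was called, with none at an unadjusted p under 0.05. Of 33 genes of the urea cycle and amino acid breakdown none was called either, with a median of 0.00.

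Among 36 transporters of amino acids, glutamate and peptides, 1 was called. SLC15A3, a peptide and histidine transporter of lysosomes, stood at 7.03 and 7.12 on the control arrays and at 4.99 and 5.37 on the MSG arrays (adjusted p = 0.0042 in limma). It rested on 3 probe sets, of which 1 moved by -6.04 while the others had a median of 0.18. The cystine and basic amino acid transporter subunit SLC3A1 stood at -1.02 (SE 0.22, adjusted p = 0.18), and the median of the list was -0.08. The full set of 33 lists held 922 measured genes, of which 7 rose and 8 fell, and 22 lists had no called member. Over all 17910 genes 9 rose (0.0503%) and 44 fell (0.246%). The lists were chosen with earlier results of these data known, so their counts are a description.

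**Figure D3:**
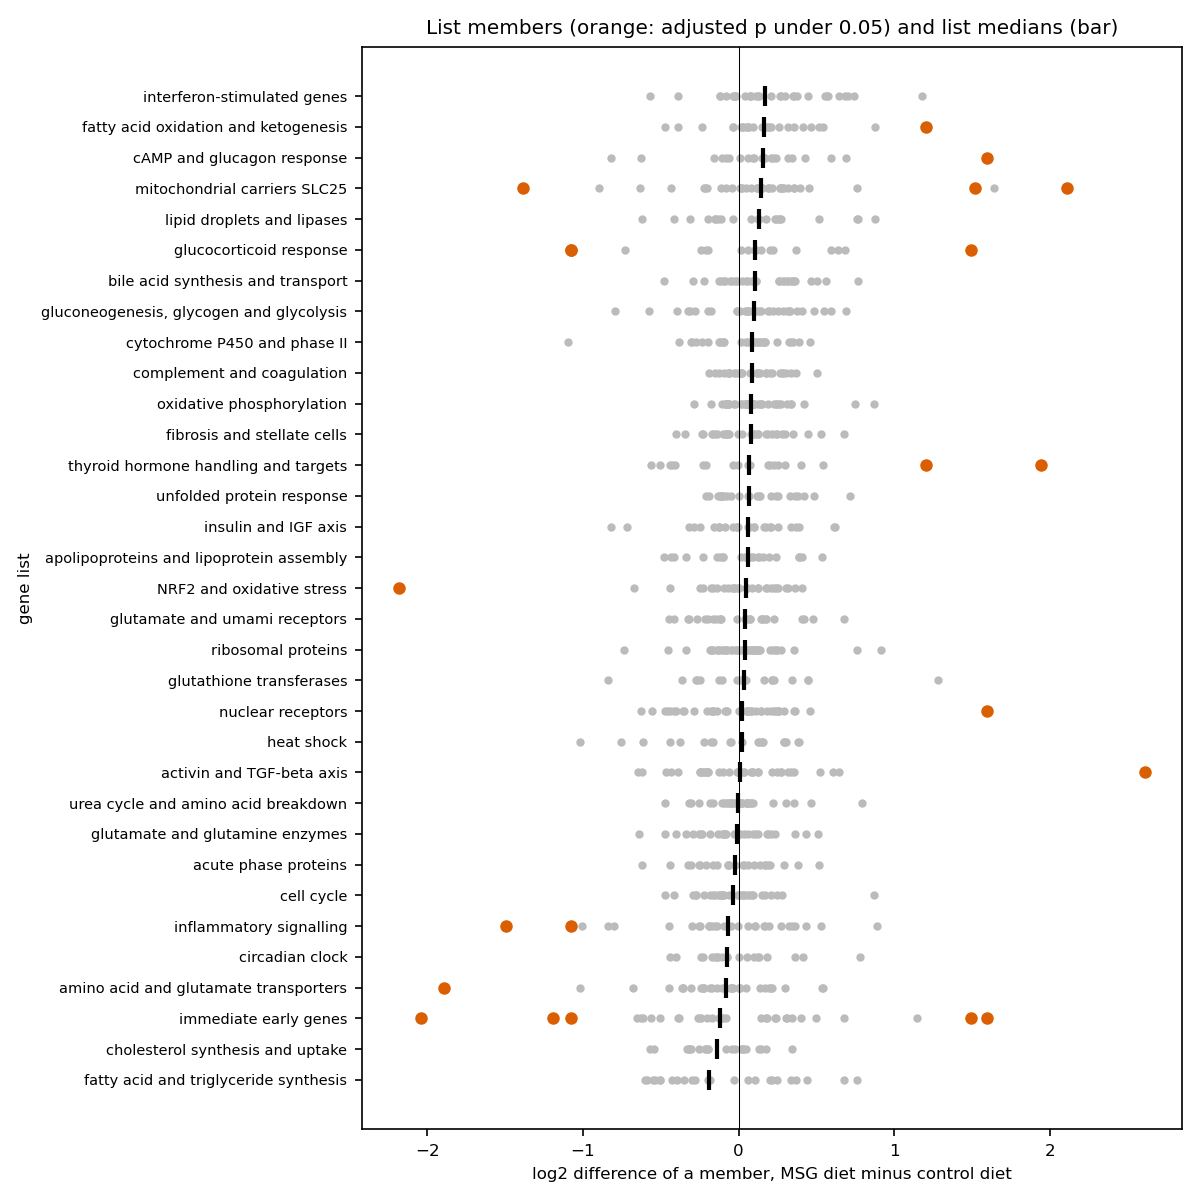
Log2 difference of the MSG diet minus the control diet (x axis) for each measured member of 33 gene lists (y axis, ordered by list median). Called members are orange, list medians are black bars, and the medians run from -0.19 for fatty acid and triglyceride synthesis to 0.17 for interferon-stimulated genes, while the called members lie outside -1 and 1.

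OSGIN2, a member of the oxidative stress-induced growth inhibitor family, fell in every probe set. It was at 6.65 and 6.57 on the control arrays and at 4.43 on both MSG arrays, a difference of -2.18 (SE 0.18, adjusted p = 0.0013 in limma), with all 5 probe sets lower, by 0.99 to 2.62. The call held in all 19 alternative settings. The other diets were as low, at 4.14 and 4.42 on the trans-fat/HFCS arrays and 4.25 and 4.52 on the combined arrays, so the control arrays were the highest of the 8. Its paralog OSGIN1, named after its value was seen, stood at 0.25 (SE 0.27, adjusted p = 0.9). OSGIN2 was the only called gene of 31 in the list of NRF2 and oxidative stress, which had a median of 0.05. FST and OSGIN2 were the only named genes among 27 to hold their call in all 19 settings.

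A further 3 decreases are described here, chosen after their values were seen. ARRDC3, an arrestin-domain protein that takes part in the turnover of membrane receptors, was at 10.95 and 10.93 on the control arrays and at 9.63 and 9.66 on the MSG arrays (-1.29, SE 0.15, adjusted p = 0.01 in limma). All 9 probe sets were lower, by 1.06 to 1.52, and the other diets lay between 10.89 and 11.20. PLK2, a polo-like kinase, fell by 1.26 (SE 0.18, adjusted p = 0.027), with 12 of 15 probe sets lower on both MSG arrays. ELF3, an epithelial transcription factor, fell from 4.80 and 4.63 to 3.12 and 3.50 (adjusted p = 0.024), with 3 of 7 probe sets lower. In ELF3 the trans-fat/HFCS and combined arrays were as low as the MSG arrays, between 3.09 and 3.48.

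Many of the other decreases rested on single probe sets. Among the called genes with at least 3 kept probe sets, all 7 that rose had most of their probe sets higher on both MSG arrays, and in none did 1 probe set move at least 2-fold while the median of the others was within 0.5 of 0. Of the 30 that fell, 16 had most of their probe sets lower on both MSG arrays, and 13 showed such a single large fall. These groups overlap: PHOSPHO1, CHGB and, outside the naming rule, ALOXE3 and CTAG2 counted in both. TMEM41A averaged -2.30 over 3, with 1 at -6.93 and the others at a median of 0.02. The largest and the median of the other probe sets were -4.53 and -0.24 in SIVA1, -4.31 and -0.36 in the secretory granule protein CHGB, and -4.24 and -0.32 in the phosphatase PHOSPHO1.

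A further group came close to that pattern without meeting it. CAPN13, a calpain protease, averaged -2.36 over 4 probe sets, with 1 at -7.91 and the others at a median of -0.57. In BEGAIN 1 of 3 probe sets stood at -5.17 and the others at a median of -0.52, and in ATP6V1C2, a subunit of the vacuolar proton pump, 1 of 5 stood at -6.85, 1 at -1.30 and the others between -0.01 and 0.11. In the genes with 2 probe sets 1 difference was far larger than the other, namely in the hedgehog ligand DHH (-3.87 and -0.47), the neuropeptide receptor NPBWR1 (-4.22 and 0.68), the elastase CELA3B (-2.90 and -0.18), the T cell receptor segment TRAJ17 (-3.08 and -0.13) and PMS2L1 (-7.47 and -0.31). CELA3B and PMS2L1 belong to families of near-identical human genes, so their names are uncertain here. RASSF4, a Ras association domain protein, rose by 1.06 in contrast with 6 of 8 probe sets higher. Its call ended without any 1 of the 4 arrays, where the difference lay between 0.99 and 1.14. The control arrays (4.30 and 4.34) were the lowest for RASSF4, with the trans-fat/HFCS arrays at 4.98 and 5.11 and the combined arrays at 5.28 and 5.44.

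**Figure D4:**
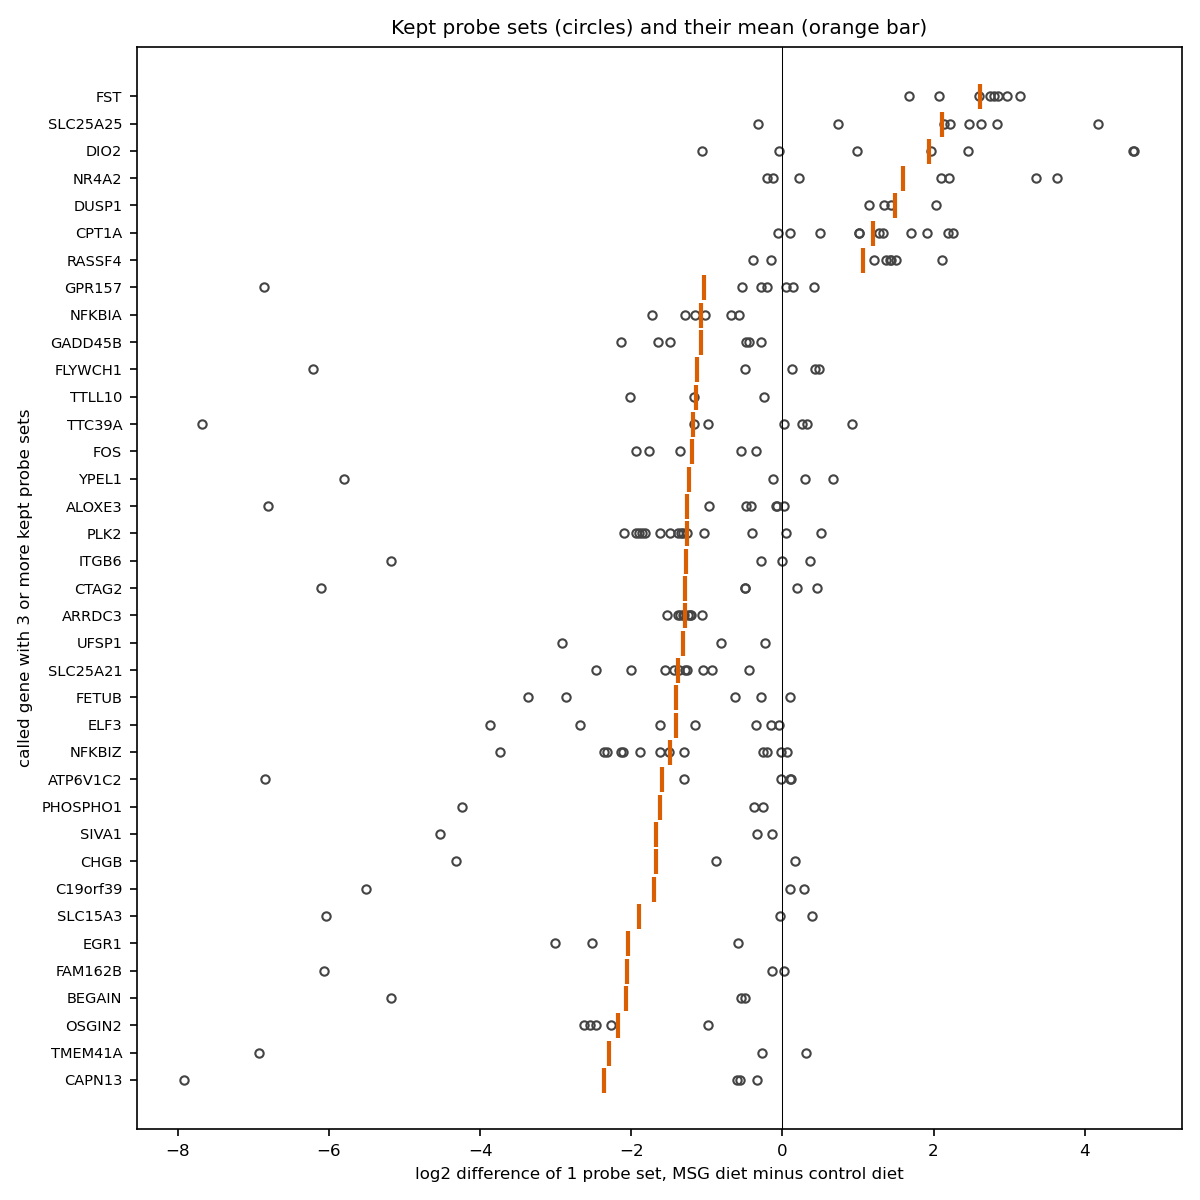
Log2 difference of the MSG diet minus the control diet for each kept probe set (circles, x axis) of the 37 called genes with at least 3 kept probe sets (y axis, ordered by the mean, orange bar). In the 7 genes that rose most circles lie to the right of 0, whereas in many that fell 1 circle lies beyond -4 and the others lie near 0.

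These single falls were then counted over all 128550 kept probe sets, whether or not their gene was called. Both MSG arrays lay at least 4 log2 units (16-fold) below every one of the other 6 arrays at 34 probe sets, and at least as far above them at none. The same count gave 0 below for the control diet, 1 for the trans-fat/HFCS diet and 0 for the combined diet, and 34 above for the trans-fat/HFCS diet, the arrays with the high skeletal muscle markers. Taken singly, no array lay that far below all 7 others at more than 1 probe set. At the 34 probe sets the MSG arrays ranged from 1.60 to 5.35 with a median of 2.70, close to the dim filter of 2.43, and the other arrays from 6.18 to 11.75 with a median of 9.13. The 34 belonged to 30 genes named alone and 4 probe sets with no gene or several. Where a gene had other kept probe sets, in 29 cases, the median difference of those others was within 0.5 of 0 in 27, and its median over the 29 was 0.02.

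Of the 34 probe sets, 14 belonged to called genes. The lowest p of the comparison, that of C10orf27 (named after its value was seen), rests on 1 of them, at 10.17 and 10.06 on the control arrays and 1.95 and 1.96 on the MSG arrays. The other diets lay between 9.43 and 10.28 there, and no other probe set of C10orf27 passed the filter on dim signal. Between the MSG and control diets alone, 106 kept probe sets were at least 16-fold lower and 5 at least 16-fold higher, and between the combined and trans-fat/HFCS diets 63 were lower and 7 higher by as much. Left out after the data were seen, the 34 probe sets took the count from 53 to 34 genes, all among the 53, with 8 higher and 26 lower. SLC15A3 (0.18), TMEM41A (0.02), CAPN13, ATP6V1C2 and PMS2L1 then had adjusted p between 0.83 and 0.995 in limma. The 34 probe sets were picked for low values on the MSG arrays, so these losses followed from the choice and the new count is a description. RASSF4, GADD45B and FOS, whose own values were the same, also no longer passed (0.052 to 0.064).

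The design also asks whether MSG moved the same genes on the trans-fat/HFCS base, that is between the combined and the trans-fat/HFCS diets, which share no array with the chow comparison. On that base 32 genes passed (0.179%), and 2 of them, PHOSPHO1 and the small nucleolar RNA SNORD104, were among the 53. The 32 included skeletal muscle markers that were high on the trans-fat/HFCS arrays, such as MYH1 (-2.93), MYL1 (-3.14) and ACTA1 (-3.03). Over the 11 measured markers of skeletal muscle the median difference on that base was -2.26. What part of the 32 reflects muscle RNA was not tested. Of the 53, 45 had a difference of the same sign on that base, among them PHOSPHO1 (-1.62 on chow and -1.40 on the base, each with SE 0.19). The share of same-sign differences over all genes was not computed, so this count is a description. SNORD104, on 1 kept probe set and named after its value was seen, had opposite signs (3.22 on chow and -3.35 on the base). The difference between the 2 effects was tested by the interaction, computed as the second effect less the first. It called 27 genes (0.151%), 11 positive (0.0614%) and 16 negative (0.0893%). The negative ones included 7 of the 11 skeletal muscle markers, a list with a median difference of 0.04 on chow. Among the 53 genes 12 passed the interaction test, 8 of them open to naming. The chow difference that chose the 53 is also a term of the interaction, so this share is a description.

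The 8 were FST, SLC25A25, DUSP1, OSGIN2, SLC25A21, TMEM41A, BEGAIN and SLC15A3. On the trans-fat/HFCS base FST differed by 0.26 (SE 0.17) and SLC25A25 by 0.19 (SE 0.18), against 2.61 and 2.11 on chow. DUSP1 had the opposite sign there (-0.78, SE 0.17), and OSGIN2 stood at 0.11 (SE 0.18). SLC25A21 was at 0.78 (SE 0.19) on that base. For DIO2 (0.40, SE 0.18), NR4A2 (0.16, SE 0.21) and CPT1A (0.12, SE 0.17) the smaller difference on that base did not pass the interaction test (adjusted p between 0.082 and 0.21 in limma), nor did those of EGR1 (-0.54, SE 0.20), NFKBIA (-0.56, SE 0.15) and FOS (-0.74, SE 0.19), with adjusted p between 0.14 and 0.66. Without any 1 of the 4 chow arrays, the interaction of no named gene passed except that of TMEM41A without either control array (adjusted p between 0.083 and 0.20 for the others). With the median of the probe sets none of the 8 passed it (adjusted p between 0.078 and 0.41), and without the 34 probe sets SLC15A3 (0.27) and TMEM41A (1.49) did not.

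**Figure D5:**
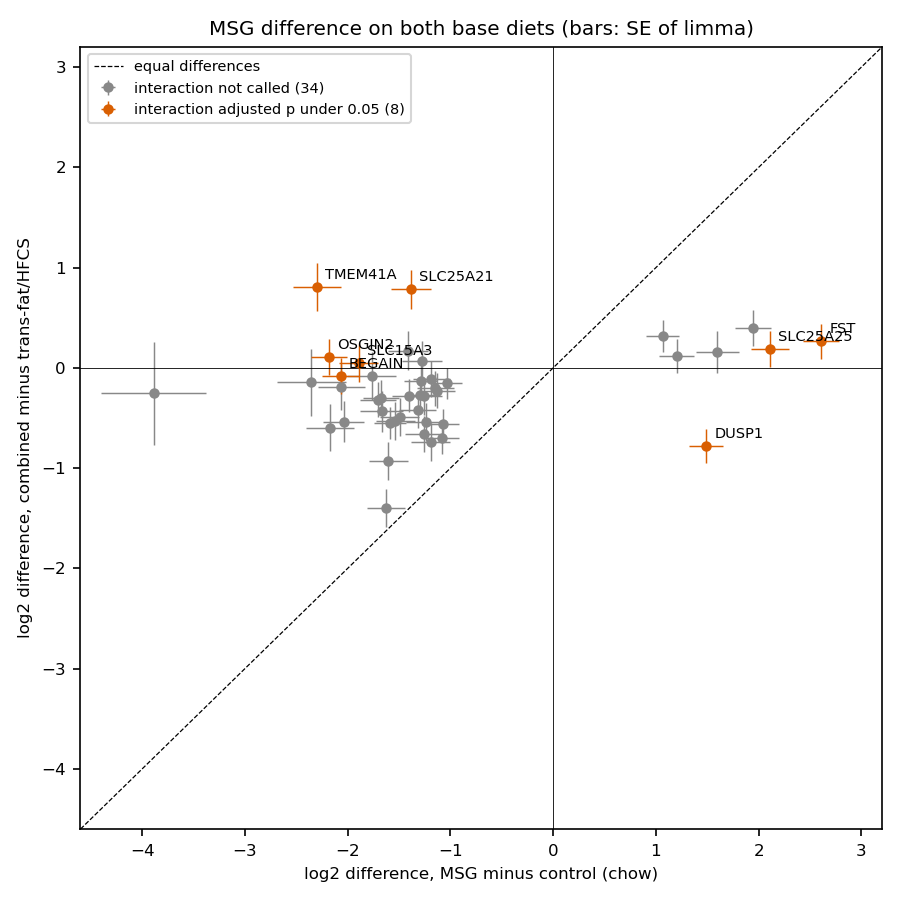
MSG difference on chow (x axis, MSG minus control) against that on the trans-fat/HFCS base (y axis, combined minus trans-fat/HFCS), both log2, for the 42 called genes with at least 2 kept probe sets, with SE bars of limma. The x values chose the genes, so their larger size on that axis is not a result, and 8 genes in orange passed the interaction test.

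Set beside the control arrays, the trans-fat/HFCS mean of a called gene was nearer to the control mean in 43 of 53 genes and nearer to the MSG mean in 10. The combined mean was nearer to the control mean in 37 and to the MSG mean in 16. Both diets share the control arrays with the chow comparison, so these counts are a description. For FST the differences from control were 2.61 on the MSG diet, 1.81 on the trans-fat/HFCS diet and 2.07 on the combined diet, for OSGIN2 -2.18, -2.33 and -2.22, and for ELF3 -1.41, -1.51 and -1.34. In these genes the control cats were the group apart. For DIO2 they were 1.94, -0.25 and 0.15, for SLC25A25 2.11, -0.27 and -0.08 and for ARRDC3 -1.29, 0.25 and -0.03. There the MSG mean lay apart from the means of the other diets. The interaction test of limma passed for SLC25A25 (adjusted p = 0.036) but not for DIO2 (0.082) or ARRDC3 (0.19).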

How the data were processed

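Normalized intensities of 8 arrays, labelled from 250 ng of liver RNA, were used as the authors deposited them, on a linear scale per exon-level probe set. Per the submitters' processing notes, Partek, GCRMA and build hg19 were used; versions and order are not given in the sources used here. Cat RNA binds a human probe set only as far as the sequences match. Of 257101 probe sets, 224320 name 1 gene in the platform annotation, 10159 several and 22622 none. Values were converted to log2, probe sets with a mean above the median of all (log2 2.43) were kept (128550), and the 111624 naming 1 gene were averaged per gene. Of 17910 genes, 2000 rested on 1 probe set, and 13566 symbols are in a cat gene table (assembly F.catus_Fca126_mat1.0).

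Using limma 3.58.1 (R 4.3.3), 1 model with 4 diet groups took in the 8 arrays (4 residual and 5.01 prior degrees of freedom), two-sided, with Benjamini-Hochberg adjustment over all genes and a threshold of 0.05. SEs are those of limma. The steps were tested on simulated data. Lists and naming rule were chosen with earlier results of these data known. Named were called genes with at least 2 kept probe sets, leaving aside non-coding RNAs, olfactory receptors and genes with placeholder names: up to 15 per direction by size, called list members, up to 4 members of smallest p in a described list, and called genes passing the interaction. Genes passing with the median of the probe sets were to be described first, but text follows function instead. Alternatives changed the filter, gene summary, offset, normalization, prior, arrays and replicate block.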

Additional observations from a re-analysis of the deposited data

Results flagged for a closer look

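The effect of MSG differed between the base diets, by the interaction test of limma, in 8 named genes. They were chosen by their difference on chow, which is also a term of that test. Each value is the log2 effect of adding MSG to the trans-fat/HFCS diet, less its effect when added to chow. They were -2.34 for FST (SE 0.24, adjusted p = 0.013), -1.92 for SLC25A25 (SE 0.26, adjusted p = 0.036) and -2.27 for DUSP1 (SE 0.24, adjusted p = 0.013), in which the level was higher with MSG on chow. They were 2.29 for OSGIN2 (SE 0.25, adjusted p = 0.016) and 2.16 for SLC25A21 (SE 0.27, adjusted p = 0.029), in which most probe sets were lower with MSG on chow. They were 3.10 for TMEM41A (SE 0.33, adjusted p = 0.014), 1.99 for BEGAIN (SE 0.26, adjusted p = 0.033) and 1.94 for SLC15A3 (SE 0.27, adjusted p = 0.037), in which 1 probe set moved over 16-fold. Of 17 alternative settings the interaction passed in 12 for FST, 11 for DUSP1 and TMEM41A, 9 for OSGIN2, 7 for SLC25A21, 6 for SLC25A25 and BEGAIN and 3 for SLC15A3. The losses included, for every gene other than FST and DUSP1, at least 1 setting without a single trans-fat/HFCS array. In FST, OSGIN2 and SLC25A21 the trans-fat/HFCS diet without MSG stood 1.81, -2.33 and -1.40 from control, differences given without a test.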

How the results depend on the processing

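The count of 53 called genes became 95 with the 75th percentile filter, 102 with the brightest probe set, 137 with the offset of 16, 15 with the median of the probe sets and 34 without the 34 probe sets far lower on both MSG arrays. It was 34 with the replicate block, and between 13 and 55 without any 1 of the 8 arrays. The interaction count of 27 became 14, 56, 82 and 5 in the first 4 of these settings, 41 with an intensity trend in the prior variance and 11 with the replicate block, and lay between 5 and 20 without 1 array. The 15 called list members became 8 with the brightest probe set, 32 with the offset and 4 with the median, and lay between 4 and 16 without 1 array. Direction turned in NPBWR1 with the brightest probe set (0.68), and without the 34 probe sets in SLC15A3 (0.18) and TMEM41A (0.0204). The cause of these changes was not tested beyond what each setting leaves out. Replicate numbers gave no sign of pairing between control and MSG arrays, which deviated from their group means with r = 0.043 across genes where same-numbered. The other diets were not checked this way, and whether same-numbered arrays shared a batch was not tested. A left-out array leaves 1 in its group, assumed to vary like the others. Of 513 values of named genes under the alternatives 347 kept direction and call.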
